A study of Mus musculus with 62 samples.

Results

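Expression of 10 genes of branched-chain amino acid breakdown was followed in the quadriceps of mice that ran or did not run, with or without 2 supplements. The 10 genes were chosen by name, as the count rows whose identifiers map to the symbols Bcat2, Bckdha, Bckdhb, Dbt, Bckdk, Ppm1k, Ivd, Mccc1, Mccc2 and Hibadh, out of 55487 gene rows. All 10 were found and all 10 passed the low-count filter, which kept 14549 genes. On mm10, as deposited, they lie on chromosomes 2 (Ivd), 3 (Dbt and Mccc1), 6 (Ppm1k and Hibadh), 7 (Bcat2, Bckdha and Bckdk), 9 (Bckdhb) and 13 (Mccc2).

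The study crossed voluntary running, nicotinamide riboside (NR, a form of vitamin B3 that cells turn into NAD) and pterostilbene (PT, a plant stilbene related to resveratrol) in male mice, and its title concerns running and NR in muscle NAD, mitochondrial capacity and insulin sensitivity. Each of the 62 libraries is poly-A RNA from the quadriceps of 1 animal. Runners were given NR and PT (8 animals), NR alone (7), PT alone (8) or neither (7). Non-runners were given NR and PT, NR alone, PT alone or neither, with 8 animals in each group. The title gives NR as intravenous. The sources used here name no strain, age, dose or length of the running period. Of the 62 animals, 30 ran and 32 did not, 31 had NR and 31 did not, and 32 had PT and 30 did not. Animals were killed over 8 days, in the morning or at noon. Within a day all runners shared 1 of these times and all non-runners the other, so the running comparison lies between 16 sessions.

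Leucine, isoleucine and valine are broken down largely outside the liver, and skeletal muscle is a main site of the opening step. In that step a transaminase moves the amino group to alpha-ketoglutarate, and the branched-chain alpha-keto acid dehydrogenase complex of the mitochondrial matrix then commits the keto acids to oxidation. A kinase switches this complex off and a phosphatase switches it on, after which separate enzymes carry each carbon chain towards the TCA cycle.

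Libraries held between 5642043 and 30804390 counted reads. RNA integrity numbers lay between 8.6 and 10. Levels are in CPM, the usual counts scaled to library size, with sizes adjusted by the TMM method. The 10 genes had median counts between 285 reads (Ppm1k) and 2778 reads (Bckdk) per library, and their lowest count in any library was 84 reads. Skeletal muscle markers, such as muscle creatine kinase and fast myosin, summed to 145299 to 197833 CPM across runners and to 154066 to 196015 CPM across non-runners. A runner with NR alone (replicate 1) stood apart, with ribosomal-like genes at 250111 CPM, against a median of 559 CPM, and the lowest depth. It is 1 of 8 libraries above 5 times that median. Running calls are given without it for Ppm1k, Bckdha, Hibadh, the other catabolic enzymes and Slc43a2. Daily and group means, matched pairs, ratios and correlations are given with it only.

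The promoter of Ppm1k is shown because Ppm1k was the gene with the largest fitted running difference among the 10, and that of Bckdk because the kinase acts opposite to it on the same complex. Both are the 250 bases before the start of the gene in RefSeq, on GRCm38.p6, written 5′ to 3′ on the strand of the gene. The Ppm1k window lies at chr6:57535488-57535737, minus strand, and Bckdk at chr7:127903823-127904072, plus strand. Capitals mark the GC box GGGCGG on either strand.
Ppm1k: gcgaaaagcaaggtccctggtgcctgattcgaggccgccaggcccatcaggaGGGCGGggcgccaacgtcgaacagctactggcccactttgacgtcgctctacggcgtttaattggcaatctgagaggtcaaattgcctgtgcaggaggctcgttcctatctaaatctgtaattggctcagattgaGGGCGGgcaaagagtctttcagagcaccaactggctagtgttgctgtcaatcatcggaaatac
Bckdk: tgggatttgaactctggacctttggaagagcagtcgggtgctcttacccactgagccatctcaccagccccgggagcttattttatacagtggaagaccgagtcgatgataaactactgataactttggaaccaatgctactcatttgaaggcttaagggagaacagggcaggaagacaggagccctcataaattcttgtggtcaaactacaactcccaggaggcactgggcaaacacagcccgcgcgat
The Ppm1k window held 2 GC boxes, which began 198 and 63 bases before the start, 14 CG dinucleotides and a GC content of 54.4%. The Bckdk window held no match, 7 CG dinucleotides and a GC content of 50.0%. Among 32851 RefSeq promoters the share with a GC box was 32.7%, and that with the KLF-type box CCACCC was 28.1%, with the E-box CACGTG 6.02% and with the nuclear receptor half-site AAGGTCA 4.08%, each counted on both strands. Promoter entries were matched for 9 of the 10 genes (11 entries in all). GC boxes occurred in 4 of the 11 entries (Bckdhb, Hibadh, Mccc1 and Ppm1k), CCACCC in 3 (Bckdhb, Ivd and Mccc1), CACGTG in 1 (Mccc2) and AAGGTCA in 0. These are matches of letters, and no binding was measured.

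Per kilobase of the counted gene length, the level of the dehydrogenase kinase Bckdk was the highest of the 10, at 47.5 ± 3.01 CPM per kilobase (SD, n = 62 libraries). The isovaleryl-CoA dehydrogenase Ivd, of leucine breakdown, followed at 28.4 ± 3.00, and the E1 alpha subunit Bckdha at 24.2 ± 3.52 CPM per kilobase. The mitochondrial transaminase Bcat2 stood at 18.1 ± 2.30 and the valine enzyme Hibadh at 14.6 ± 1.59 CPM per kilobase. Next came Mccc2 (13.3 ± 0.977), Bckdhb (12.9 ± 1.29) and the E2 core subunit Dbt (11.7 ± 1.45 CPM per kilobase). From Hibadh to Dbt, each gene differed from its neighbour in this order by less than the larger of their SDs. Mccc1, at 3.95 ± 0.370, and the phosphatase Ppm1k, at 3.02 ± 0.520 CPM per kilobase, had the lowest levels. The cytosolic transaminase Bcat1 had 0.0336 ± 0.0197 CPM per kilobase and did not pass the filter, so nearly all transaminase mRNA counted here was Bcat2. The length is that of all counted exons and not of the transcripts in use, so the order holds on that scale only. Much of the Bckdha length overlaps a gene on the other strand, which leaves its place in the order uncertain.

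The first comparison asks how muscle of runners differed from that of non-runners, averaged over the 4 supplement arms. Of the 10 genes, 2 were higher in runners (Ppm1k and Bckdha) and 0 were lower at an edgeR adjusted p below 0.05. Over all genes tested, 14.0% were called, 8.41% higher and 5.58% lower, so 2 of 10 is near that background. The fitted log2 change was above 0 for 7 of the 10, with a median of 0.03, beside 0.01 over all genes tested.

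**Figure D1:**
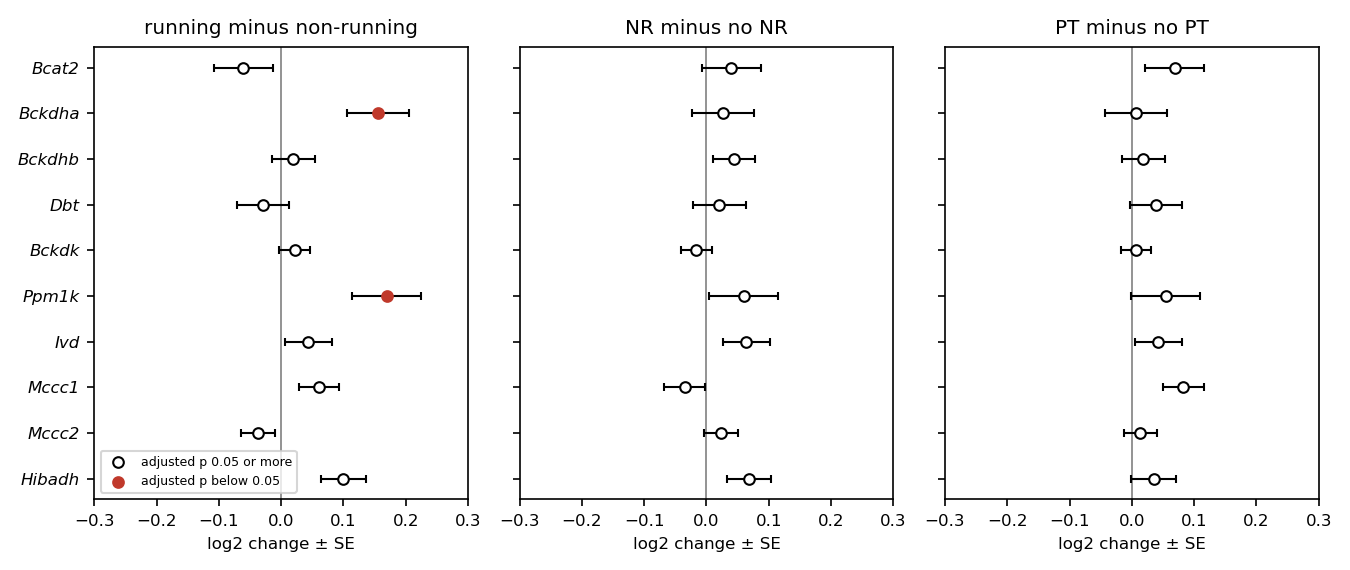
Fitted log2 change (± SE) of each of the 10 genes for running minus non-running, NR minus no NR and PT minus no PT, from edgeR on 62 libraries. Filled points have an adjusted p below 0.05: Bckdha and Ppm1k for running, and none for NR or PT.

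The switch of the complex is set by its phosphatase and its kinase. Ppm1k (chr6:57506502-57535426), the mitochondrial phosphatase that takes the inhibiting phosphate off E1 alpha, had 11.9 to 27.6 CPM in runners (median 18.8, n = 30) and 13.1 to 20.9 CPM in non-runners (median 16.8, n = 32). The 2 sets overlapped, with the highest runners above every non-runner and the lowest runner below every non-runner. The fitted difference was 0.17 ± 0.06 on the log2 scale (SE), a fold of 1.12, with an edgeR adjusted p of 0.0321. Ppm1k was higher in the runner in 20 of 30 pairs matched by day and supplement, and the mean difference was above 0 on 8 of 8 days, from 0.02 to 0.38. The animals of a running pair, here and below, differed in time of termination, morning against noon, and pair and day counts are not adjusted for it. Bckdk (chr7:127904082-127908600), the kinase that adds this phosphate, had 156 to 196 CPM in runners (median 176.5) and 152 to 198 CPM in non-runners (median 173), which overlapped almost fully. Its fitted difference was 0.02 ± 0.02, with an edgeR adjusted p of 0.609.

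The complex itself has an E1 alpha and an E1 beta subunit, an E2 core and a shared E3. Bckdha (chr7:25629946-25658981), which encodes E1 alpha, had 36.8 to 59.7 CPM in runners (median 47.6) and 30.9 to 54.1 CPM in non-runners (median 43.7). The ranges overlapped over most of their width. The fitted difference was 0.16 ± 0.05, a fold of 1.11, with an edgeR adjusted p of 0.0278. Runners were higher in 21 of 30 matched pairs and on 6 of 8 days, with the mean below 0 on days 2 and 6. The partner subunit E1 beta, encoded by Bckdhb, averaged 23.5 ± 2.46 CPM in runners, against 23.1 ± 2.20 CPM in non-runners (SD, n = 30 and 32), a fitted difference of 0.02 ± 0.03 (edgeR adjusted p = 0.755). Dbt, the E2 core, averaged 38.9 ± 5.47 CPM in runners, against 39.5 ± 4.26 CPM in non-runners, a fitted difference of -0.03 ± 0.04 (edgeR adjusted p = 0.700). Bckdha shares 1171 exon bases with B3gnt8 on the other strand, beside a counted length of 1899 bases. No source used here says whether counting used strand, so how many Bckdha reads were counted there is not known. B3gnt8 itself had a mean level of 2.09 ± 0.695 CPM among runners, against 1.90 ± 0.460 CPM among non-runners.

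Both calls depended on which animals and settings were used. In 20 alternative fits all 10 genes kept the sign of their running difference, while Bckdha stayed below an adjusted p of 0.05 in 11 and Ppm1k in 9. With counts summed over each of the 16 sessions, the edgeR adjusted p was 0.0801 for Bckdha and 0.0423 for Ppm1k. Neither was called within cohort 1 alone (log2 change 0.15, edgeR adjusted p = 0.193 for Bckdha and 0.17 and 0.278 for Ppm1k) or cohort 2 alone (0.13 and 0.355 for Bckdha, 0.15 and 0.245 for Ppm1k). Without the library highest in ribosomal-like reads, Ppm1k had an edgeR adjusted p of 0.0569, Bckdha of 0.0181 and Hibadh of 0.0187. Without replicate 6 of the non-runners with NR alone, Ppm1k had 0.0529 and Bckdha 0.0446. Without the 8 libraries above 5 times the median, the edgeR adjusted p was 0.103 for Ppm1k, 0.00222 for Bckdha and 0.0355 for Hibadh.

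**Figure D2:**
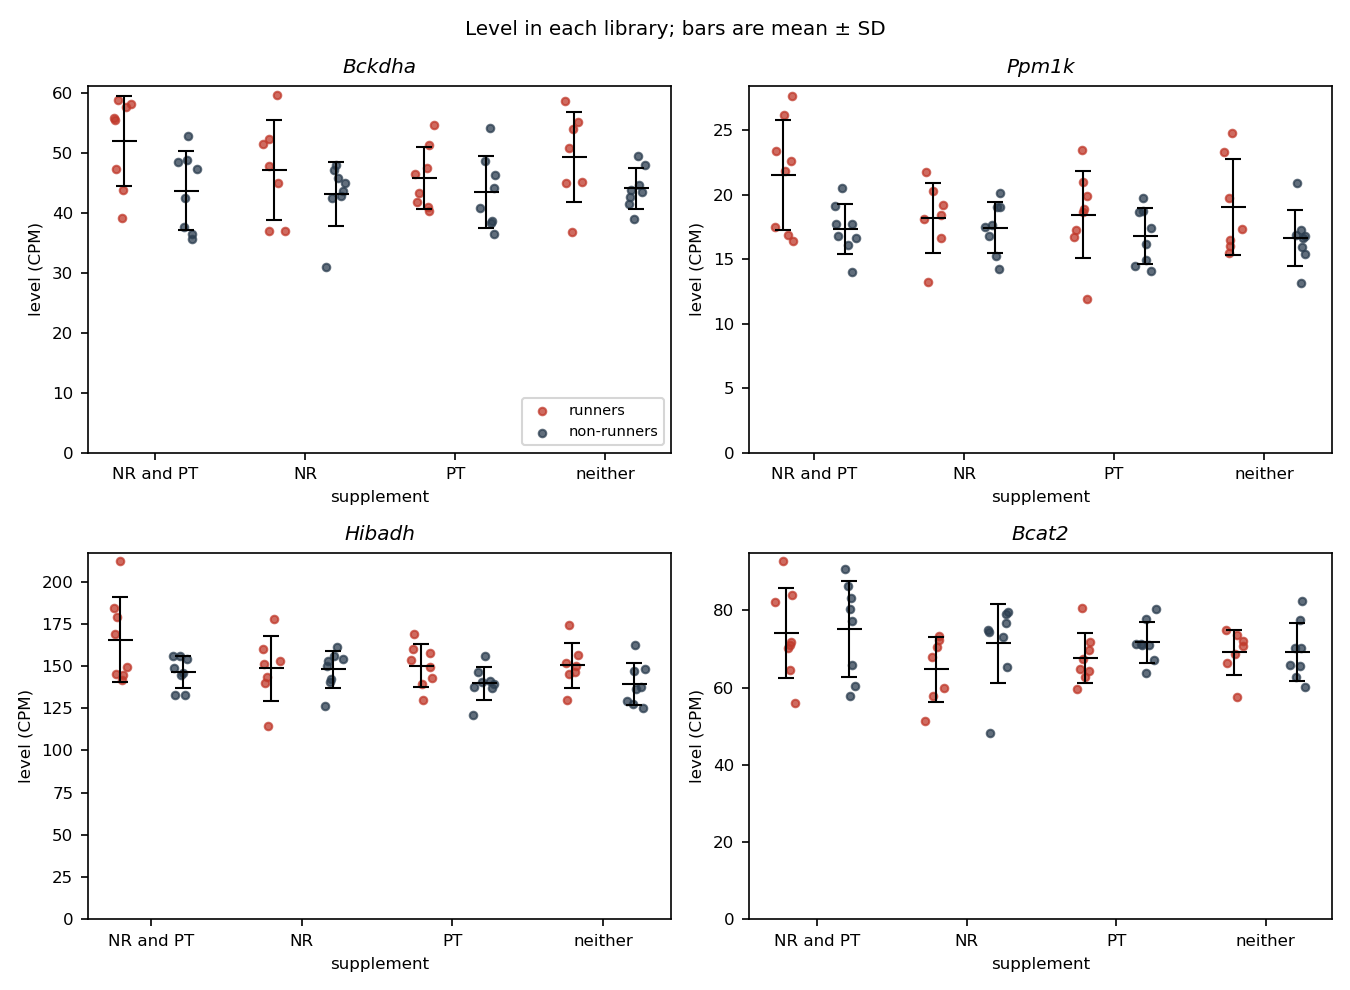
Level in CPM of Bckdha, Ppm1k, Hibadh and Bcat2 in each library of the 8 groups (points), with mean and SD (bars), runners left of non-runners in each supplement arm. Runners with both supplements had the highest mean of Bckdha, Ppm1k and Hibadh, and runners overlapped non-runners in each arm.

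The transaminase that opens the pathway did not pass the test. Bcat2 (chr7:45570153-45589711) had 51.5 to 92.8 CPM in runners (median 69.9) and 48.3 to 90.7 CPM in non-runners (median 71.3). The fitted difference was -0.06 ± 0.05, with an edgeR adjusted p of 0.425, and runners were higher in 12 of 30 pairs. Bcat2 shares 622 exon bases with the antisense-strand gene 0610005C13Rik, counted at a median of 0.440 CPM.

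Further along, Ivd, Mccc1 and Mccc2 serve leucine and Hibadh serves valine. Hibadh (chr6:52546228-52640389), the 3-hydroxyisobutyrate dehydrogenase, had 114.6 to 212.5 CPM in runners (median 150.7) and 121.3 to 162.3 CPM in non-runners (median 143.7). Some runners were above every non-runner, and the lowest animal of all was also a runner. Its fitted difference of 0.10 ± 0.04 just missed the threshold, with an edgeR adjusted p of 0.051. Ivd averaged 158.9 ± 18.5 CPM in runners, against 153.9 ± 14.4 CPM in non-runners, a fitted difference of 0.04 ± 0.04 (edgeR adjusted p = 0.471). The biotin-bearing subunit of methylcrotonyl-CoA carboxylase, Mccc1, averaged 44.3 ± 3.97 CPM in runners, against 42.3 ± 3.94 CPM in non-runners, a fitted difference of 0.06 ± 0.03 (edgeR adjusted p = 0.212). Its other subunit, Mccc2, averaged 36.8 ± 2.32 CPM in runners, against 37.8 ± 3.03 CPM in non-runners, a fitted difference of -0.04 ± 0.03 (edgeR adjusted p = 0.385).

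**Figure D3:**
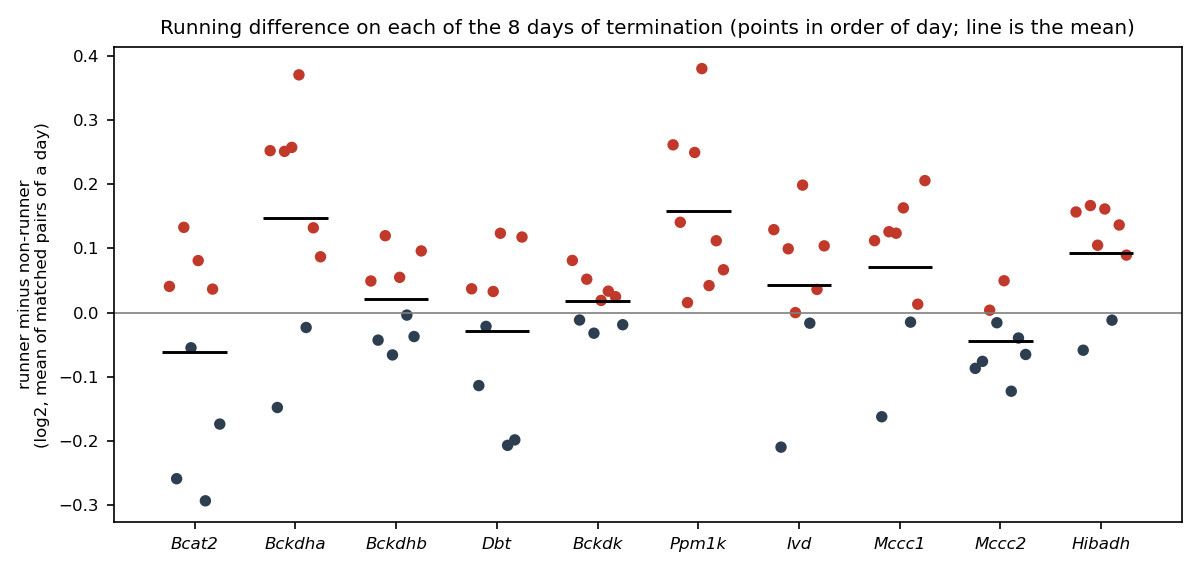
Mean log2 difference, runner minus non-runner, of the matched pairs of each of the 8 days, in order of day, for the 10 genes (red above 0, dark below 0; line, mean of days). Ppm1k lay above 0 on 8 of 8 days, and Bckdha and Hibadh on 6 of 8.

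Ratios of 2 genes within a library do not depend on library scaling. Bcat2 over Bckdha had a mean log2 ratio of 0.51 ± 0.14 in runners and 0.72 ± 0.16 in non-runners (SD, n = 30 and 32), and the mean daily difference was -0.21, below 0 on 8 of 8 days. The exact two-sided sign-flip permutation test over the 8 daily means gave p = 0.00781, the smallest it can give, and 0.0527 after Benjamini-Hochberg adjustment over the 9 ratio tests. Bckdk over Ppm1k was 3.21 ± 0.29 in runners and 3.36 ± 0.18 in non-runners, a daily difference of -0.14, below 0 on 7 of 8 days (exact permutation p = 0.0234, adjusted 0.0527). Mccc1 over Mccc2 was 0.26 ± 0.11 in runners and 0.16 ± 0.14 in non-runners, a daily difference of 0.11, above 0 on 7 of 8 days (exact permutation p = 0.0234, adjusted 0.0527). All 3 ratios missed the adjusted threshold, but with 8 days and 9 tests a single ratio at the smallest possible p has an adjusted value of 0.0703 and cannot pass. Bckdha and Ppm1k, each part of a ratio, were called for running in these same libraries, so the ratios are not separate support for those calls. Mccc1 shares exon bases with 3 genes on the other strand, whose medians ran up to 0.579 CPM.

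Several enzymes of the pathway outside the 10 passed the test. Of 20 other catabolic enzymes, 19 were tested, 8 were higher in runners and 0 lower, with a median log2 change of 0.12. Dld, the E3 subunit that the branched-chain complex shares with those for pyruvate and alpha-ketoglutarate, averaged 290 ± 39.4 CPM in runners, against 256.8 ± 24.4 CPM in non-runners (SD, n = 30 and 32), a difference of 0.17 ± 0.04 (edgeR adjusted p = 0.00625). In the leucine branch Auh, which hydrates methylglutaconyl-CoA, rose by 0.09 ± 0.03 on the log2 scale, and Oxct1, which activates ketone bodies for oxidation, by 0.21 ± 0.05. In the valine branch Acad8, the isobutyryl-CoA dehydrogenase, rose by 0.12 ± 0.04 and Hibch, the hydrolase before Hibadh, by 0.12 ± 0.04. Echs1, an enoyl-CoA hydratase shared with fat oxidation, rose by 0.12 ± 0.04, the thiolase Acaa2 by 0.22 ± 0.08, and Mmaa, which serves the cobalamin-dependent mutase of propionate use, by 0.14 ± 0.04. Apart from Dld, the edgeR adjusted p of these genes lay between 0.00217 (Oxct1) and 0.0491 (Acaa2). All 8 kept their sign in 20 of 20 alternative fits, and were called in 7 (Acaa2) to 18 (Oxct1) of them. Without replicate 6 of the non-runners with NR alone, 5 of the 19 were higher, without the library highest in ribosomal-like reads 9, and without the 8 such libraries 6, while cohort 1 alone and cohort 2 alone gave 0. A cohort holds fewer animals, and fewer of all genes were called in each, as given in the closing section.

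**Figure D4:**
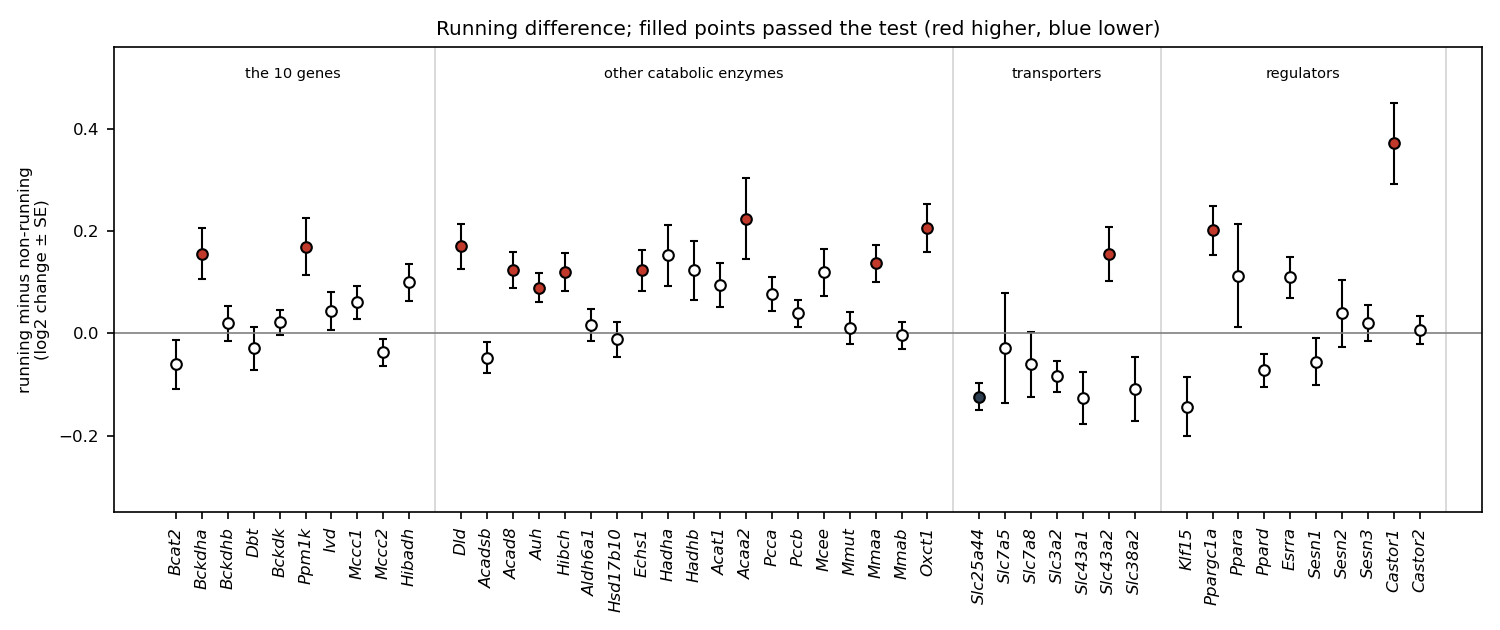
Fitted log2 change (± SE), running minus non-running, of the 10 genes, the other catabolic enzymes, the transporters and the regulators. Filled points passed edgeR at an adjusted p below 0.05: 2 of 10, 8 of 19, 2 of 7 and 2 of 10 genes.

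Of the transporters, the mitochondrial carrier was lower in runners. Slc25a44, the mitochondrial carrier of branched-chain amino acids, had 34.9 to 45.2 CPM in runners (median 38.6) and 37.8 to 48.2 CPM in non-runners (median 42.0). Runners lay lower as a group, and the ranges overlapped. The difference was -0.12 ± 0.03, with an edgeR adjusted p of 0.000951, and it was called in 19 of 20 alternative fits. Slc43a2, a plasma membrane transporter of large neutral amino acids, was higher in runners by 0.16 ± 0.05 (edgeR adjusted p = 0.0382), but in 5 of 20 alternative fits only, and not without the library highest in ribosomal-like reads. Of 7 transporters 1 was thus higher and 1 lower, and 1 of 7 lay above 0 (median -0.08). Among 10 regulators, Ppargc1a, a coactivator of mitochondrial genes, averaged 36.6 ± 5.05 CPM in runners, against 31.8 ± 3.82 CPM in non-runners, a difference of 0.20 ± 0.05 (edgeR adjusted p = 0.00283). Castor1, an arginine sensor upstream of mTORC1, was higher by 0.37 ± 0.08 at a low level, 2.98 ± 0.718 CPM in runners, against 2.34 ± 0.651 CPM in non-runners (edgeR adjusted p = 0.000904). Klf15, a transcription factor tied to muscle amino acid use, differed by -0.14 ± 0.06 (edgeR adjusted p = 0.0853), and the nuclear receptor Esrra by 0.11 ± 0.04 (edgeR adjusted p = 0.051).

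Neighbouring mitochondrial steps were described from 3 further lists. Of 17 TCA cycle genes 15 were higher in runners and 0 lower, with a median of 0.14, and those of smallest p were Cs (0.16 ± 0.03), Mdh2 (0.22 ± 0.04), Idh3g (0.17 ± 0.03) and Dlst (0.18 ± 0.04). Of 8 subunits of the sister complexes for other alpha-keto acids 6 were higher and 0 lower, with a median of 0.18, and those of smallest p were the pyruvate dehydrogenase subunits Pdha1 (0.25 ± 0.04), Dlat (0.22 ± 0.04) and Pdhb (0.19 ± 0.04). Ogdh and Dlst, both called, belong to this list and to the TCA cycle list, so the counts of these lists are not separate. Of 7 kinases and phosphatases of pyruvate dehydrogenase 2 were higher, Pdk3 (0.54 ± 0.12) and Pdk1 (0.10 ± 0.03). Pdk3 was counted at a low level, 0.358 CPM per kilobase over all libraries, against 10.3 for Pdk1 and 162 for Pdk2. Without replicate 6 of the non-runners with NR alone, 10 of the 17 TCA cycle genes were higher, and in cohort 1 alone 3 and in cohort 2 alone 0, with medians of 0.13, 0.15 and 0.13. Each cohort alone also called fewer of all genes, as given in the closing section. The counts of these lists take each animal as a unit, and session sums are not given for them. Whether these shares differ from that of the 10 genes was not tested.

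Markers of other cell types also moved with running, and their part in these results was not tested. Endothelial markers were higher in 8 of 8 (median 0.27), with a summed level of 248 to 489 CPM in runners, against 240 to 335.5 CPM in non-runners. Fibroblast markers were higher in 3 of 8, with a summed 1180 to 2798 CPM in runners, against 794 to 2740 CPM in non-runners, and macrophage and leukocyte markers in 2 of 8, with 127 to 323 CPM in runners, against 100 to 297 CPM in non-runners. Adipocyte markers were called in 0 of 7 and summed to 26.5 to 342 CPM in runners, against 15.3 to 373 CPM in non-runners, with Ucp1 near 0. Of 8 smooth muscle and pericyte markers 3 were higher and 1 lower, of 8 Schwann cell markers 1 was lower, and of 5 erythrocyte markers 0 were called. The skeletal muscle markers moved too. Of these 8, Myh1 was higher by 0.67 ± 0.14 (edgeR adjusted p = 0.000741). Atp2a1 was lower, at -0.11 ± 0.03 (edgeR adjusted p = 0.0104). The rest were not called, and 2 of the 8 lay above 0 (median -0.07). In bulk tissue, fewer cells of a type and less RNA per cell cannot be told apart.

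The second comparison asks what NR did, averaged over running and PT. None of the 10 genes was called (0 of 10), and 3 of 14549 genes were, which is 0.0206%, with 0.0137% higher and 0.00687% lower. At an unadjusted p below 0.05, edgeR gave 0 of the 10 and 828 genes in all, and DESeq2 called 0 of the 10. The fitted log2 changes ran from -0.03 (Mccc1) to 0.07 (Hibadh), with 8 of 10 above 0 and a median of 0.03. In the 20 alternative fits Bckdha and Dbt kept their sign in 18, Bcat2, Mccc1 and Ppm1k in 19, and the other 5 in 20. Hibadh averaged 152.4 ± 18.4 CPM with NR and 144.8 ± 12.7 CPM without NR (SD, n = 31 each), and the mean of matched pairs was above 0 on 8 of 8 days. Its fitted difference was 0.07 ± 0.04, with an edgeR adjusted p of 0.918.

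The third comparison asks the same of PT. None of the 10 genes was called (0 of 10), nor was any of 14549 (0%), while edgeR gave 1 of the 10 and 580 genes at an unadjusted p below 0.05, and DESeq2 called 0 of the 10 and 0 in all. All 10 fitted changes were above 0, from 0.01 (Bckdk) to 0.08 (Mccc1), with a median of 0.04, beside -0.0019 over all genes tested. The sign was not kept in every alternative fit, since it held in 12 of 20 for Bckdha (-0.07 to 0.04), in 14 for Bckdk (-0.04 to 0.02) and in 18 for Bckdhb and Mccc2, while the other 6 kept it in 20. Mccc1 had the smallest p of the 10, with a difference of 0.08 ± 0.03 (edgeR adjusted p = 1). It was higher with PT in 21 of 30 matched pairs and on 8 of 8 days. Mccc1 over Mccc2 differed by 0.06 with PT minus without (exact permutation p = 0.0156, adjusted 0.0527).

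The remaining contrasts asked whether the factors changed each other's effect. In each of the 4 interaction contrasts 0 of the 10 genes and 0% of all genes were called by edgeR, and at an unadjusted p below 0.05 there were 0 of the 10 genes in each, against 525 genes for running by NR, 511 for running by PT, 327 for NR by PT and 403 for the 3-way term. DESeq2 called 0 of the 10 in each, and 6 genes in all for running by PT and 0 for the others. All 10 genes had an NR by PT term above 0, from 0.03 (Bckdk) to 0.14 (Ppm1k), and a 3-way term above 0, from 0.01 (Mccc1) to 0.32 (Ppm1k). In alternative fits the NR by PT term kept its sign in 18 of 20 for Bckdhb and Hibadh and in 20 for the other 8. The 3-way term kept it in 16 of 20 for Mccc1 (-0.13 to 0.14), in 19 for Bcat2, Bckdhb, Bckdk and Mccc2 and in 20 for the other 5. The median 3-way term was 0.18, beside -0.0032 over all genes tested. Ivd had the smallest p of the 10 for it (0.30 ± 0.15, edgeR adjusted p = 1). The 10 genes vary together across libraries, so their shared sign is not 10 separate observations.

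Group means were compared as a description. Runners with both supplements had the highest mean of the 8 groups for 7 of the 10 genes, and non-runners with neither had the lowest for 4. No share over all genes is given for these counts, and the 10 genes vary together, so the counts are not separate observations. Ppm1k averaged 21.5 ± 4.26 CPM in runners with both supplements and 16.6 ± 2.17 CPM in non-runners with neither (SD, n = 8 each), a ratio of 1.30 and the widest of the 10. Between runners and non-runners of the same arm, the mean paired log2 difference of Ppm1k was 0.30 ± 0.40 with both supplements (SD, n = 8 pairs), 0.06 ± 0.35 with NR alone (n = 7), 0.12 ± 0.43 with PT alone (n = 8) and 0.14 ± 0.32 with neither (n = 7). For Bckdha these were 0.25 ± 0.37, 0.12 ± 0.33, 0.08 ± 0.33 and 0.13 ± 0.23. In each arm the spread between pairs was larger than the mean. Within groups the coefficient of variation averaged 15.2% for Ppm1k and 13.4% for Bckdha, against 6.3% for Bckdk and 7.0% for Mccc2.

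Noon minus morning, from the same fit, called 0 of the 10 genes and 0% of all genes by edgeR (0 of the 10 and 768 genes at an unadjusted p below 0.05, and 0 of the 10 and 1 gene in all by DESeq2). The fitted values of the 10 ran from -0.07 (Ppm1k) to 0.05 (Bckdhb).

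The 10 genes varied together over the 62 libraries. The median Pearson correlation over the 45 pairs of them was 0.50, and 44 of the 45 were above 0. Ivd was the gene most like Bcat2 (0.68), Bckdha (0.78), Bckdhb (0.69), Mccc1 (0.61) and Hibadh (0.78), while Dbt and Ppm1k were most like each other (0.61). Bckdk was most like Bckdha (0.70), and Mccc2 most like Bcat2 (0.58). Of 11685 other genes compared, those most like the mean of the 10 were Echs1 (0.87), D10Jhu81e (0.86), Pxmp2 (0.85), Gcdh (0.83), Oxct1 (0.82), Sdhb (0.81), Sdhc (0.80) and Acadvl (0.80). These correlations describe the libraries, in which all genes share depth, scaling and the cell makeup of the piece of muscle.

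**Figure D5:**
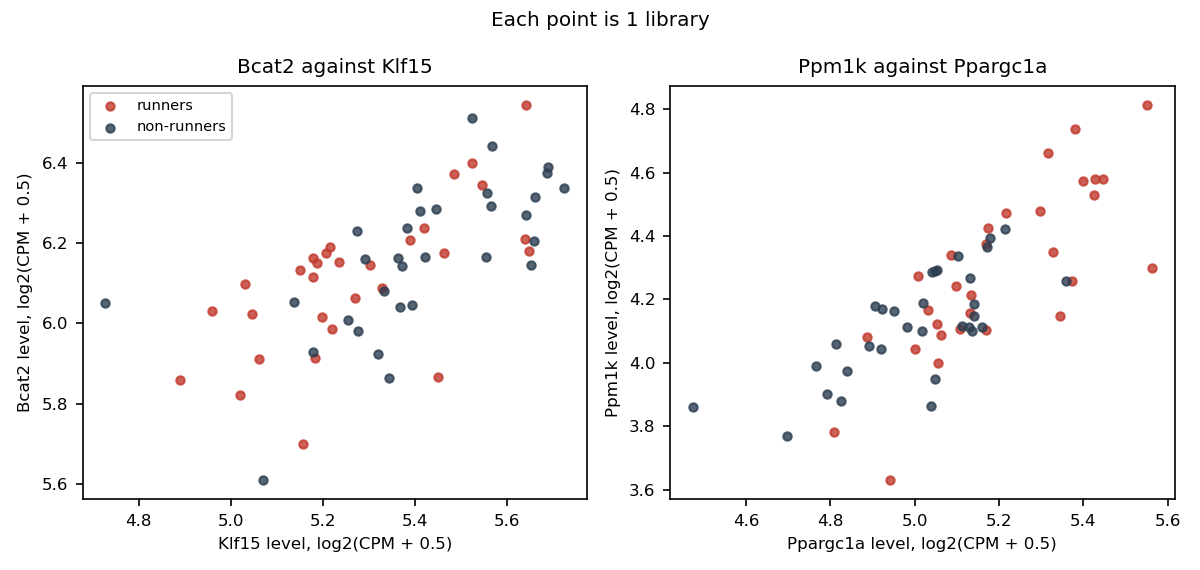
Level of Bcat2 against Klf15 and of Ppm1k against Ppargc1a, as log2(CPM + 0.5), in each of the 62 libraries (runners and non-runners by colour). Pearson's r was 0.67 in the left panel and 0.78 in the right.

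Each of the 10 genes was set against each of the 10 regulators, which gave 100 relations, and 36 had a permutation p below 0.05 after Benjamini-Hochberg adjustment. No such share is given for other genes, so the 36 cannot be read as particular to these 10. The 10 genes also vary together, so the 36 are not separate observations. Ppm1k followed Ppargc1a (Pearson's r = 0.78, Spearman's rho = 0.78), and r was 0.78 within runners, 0.72 within non-runners, 0.84 in cohort 1 and 0.71 in cohort 2. Bckdha followed Esrra (r = 0.75, rho = 0.70), with r of 0.77 within runners, 0.66 within non-runners, 0.82 in cohort 1 and 0.72 in cohort 2. Bcat2 followed Klf15 (r = 0.67, rho = 0.74), with r of 0.67 within runners, 0.66 within non-runners, 0.67 in cohort 1 and 0.68 in cohort 2. Each of these 3 had a two-sided permutation p of 1e-05, the smallest that 100000 permutations can give, with adjusted values of 0.00014 for r and 0.00017 for rho. Without the 2 libraries farthest from the median of the regulator, r was 0.80 for Ppm1k, 0.70 for Bckdha and 0.68 for Bcat2. For Bcat2 and Ppargc1a r was -0.02 (adjusted permutation p = 0.93), with 0.29 within runners and -0.16 within non-runners. For Ppm1k and Klf15 r was 0.23 (adjusted permutation p = 0.15), with 0.59 within runners and 0.12 within non-runners. These genes also went with other regulators, such as Ppm1k with Ppara (r = 0.59, adjusted permutation p = 0.00014) and Bcat2 with Esrra (r = 0.49, adjusted permutation p = 0.001). Whether 1 regulator lay closer than another was not tested, and libraries of a session share a day and a time.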

How the data were processed

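The authors deposited raw counts, whole numbers of reads for each gene. Reads were aligned with STAR 2.7.3a and counted with featureCounts 2.0.0 on mm10, per the submitters' processing notes. No source used here states the annotation release or whether counting respected strand, which leaves genes that overlap on opposite strands uncertain. Of 55487 identifiers, 55394 (99.8%) were matched to symbols. A stranded poly-A kit was used for library preparation, per the labels' protocols. Replicates of a group differed by more than sampling noise (lowest chi-square per gene 4.48). All columns were mapped to 1 sample by title.

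Genes with low counts were removed (filterByExpr, minimum count 10, minimum total 15). The edgeR 4.0.16 quasi-likelihood F test with TMM scaling and robust dispersion was fitted in R 4.3.3 to all 62 libraries, with the 8 groups, the day and the time of termination, leaving 46 residual degrees of freedom and a biological coefficient of variation of 14.0%. P-values were two-sided and adjusted by the Benjamini-Hochberg method over 14549 genes, with calls made below 0.05. The fit was tested on simulated data. Ratios and matched pairs used scipy 1.17.1 on log2 CPM. Alternatives were DESeq2 1.42.0, other scaling, no filter, other covariates, left-out days, each cohort alone, session sums and, chosen after seeing the data, left-out libraries. The members and lists were chosen with earlier results of these data known. Named genes were all 10 genes, every called gene of the catabolism, transporter and regulator lists, up to 4 genes of smallest p of the other lists, and the 8 genes most like the 10 with a mean of at least 1 CPM. A gene of the catabolism list is not reported here. Gene coordinates are mm10 and promoter sequences are RefSeq, GRCm38.p6.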

Additional observations from a re-analysis of the deposited data

Results flagged for a closer look

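Within a group, a single library far from the rest was found in 4 of 80 combinations of gene and group, about the 1 in 20 that chance gives. In non-runners with NR alone, replicate 6 had 48.3 CPM of Bcat2, against 65.3 to 79.6 CPM in the other 7, and 30.9 CPM of Bckdha, against 42.4 to 47.9 CPM. That library ranked 2 of 62 in summed fibroblast markers (2740 CPM) and 3 of 62 in macrophage and leukocyte markers (297 CPM). It ranked 9 in adipocyte, 19 in erythrocyte, 37 in Schwann cell, 47 in endothelial, 49 in skeletal muscle and 61 in smooth muscle and pericyte markers. The part of any of these markers in its values was not tested. Without it the running difference of Bckdha was 0.13 (edgeR adjusted p = 0.0446) and that of Ppm1k 0.15 (edgeR adjusted p = 0.0529). In non-runners with both supplements, replicate 3 had 39.0 CPM of Mccc1, against 43.8 to 47.6 CPM in the others. In runners with PT alone, replicate 4 had 32.5 CPM of Mccc2, against 35.3 to 37.5 CPM in the others.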

How the results depend on the processing

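For running, 2 of the 10 genes were called and the sign of all 10 was kept in all 20 alternatives. The number called was 0 with no filter on low counts, in cohort 1 alone and in cohort 2 alone, 1 without replicate 6 of the non-runners with NR alone (Bckdha) and 1 with counts summed per session (Ppm1k, with Bckdha at an edgeR adjusted p of 0.0801). Leaving out 1 day at a time gave 0 to 3, with 0 without day 1, 4, 5 or 8. Genes called for running in all were 2035, and 1333 with no filter, 2453 without that replicate 6, 623 in cohort 1, 63 in cohort 2, 1245 with session sums and 1036 to 2358 with a day left out. The cause of these changes was not tested. By design, cohorts and left-out days hold fewer animals, session sums hold 16 columns, and without the filter the adjustment runs over more genes. For NR 3 genes were called, against 1 in cohort 1 and 0 in cohort 2. For running by PT 0 were called, against 6 by DESeq2. For time 0 were called, against 254 in cohort 2 and 1 by DESeq2, and leaving out a day gave 0 to 206. Other scaling moved the median log2 change by less than 0.01.

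Same-numbered replicates showed little shared deviation (median r 0.008 over 211 pairs, 45 over 0.1, and 12 of 62 libraries best with their own number). Pairs with other numbers had a median r of -0.004 (259 of 1470 over 0.1). Pairs of the same day, which do share a factor, had only 0.010 (52 of 210 over 0.1), so this measure cannot tell whether the numbers pair animals. With a replicate block in place of day, 3 of the 10 were called for running (Bckdha, Ppm1k and Hibadh, the last at an edgeR adjusted p of 0.0349) and 1976 genes in all. With ratios paired by replicate number as a block, the running differences were -0.16 for Bckdk over Ppm1k, -0.21 for Bcat2 over Bckdha and 0.10 for Mccc1 over Mccc2, each with an exact permutation p of 0.00781 and 0.0234 after adjustment. Same-numbered animals were not always killed on the same day, and animals of 1 session fell in several blocks, so these blocks are not independent. They do not stand in for the exact permutation test by day, which gave 0.0527 after adjustment for each ratio. Leaving out a day put the NR difference of Bcat2 over Bckdha between -0.0019 and 0.0381, around 0.01 with all days.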
